A study of Danio rerio with 12 samples.

Results

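The nuclear-encoded genes of the mitochondrial respiratory chain were examined in zebrafish cardiomyocytes sorted at 20 hpf after loss or gain of the transcription factor gene *hand2*. Members were all genes whose symbol begins with nduf, sdha to sdhd, uqcr, atp5 or cox followed by a number from 4 to 8, together with *cyc1*. The rule used names only and no measured value. It found 101 genes of the 21570 listed for the mutant experiment and the same number of the 21119 listed for the overexpression experiment. After a filter on low values, a mean of at least 5 normalized counts over the 6 libraries of an experiment, 99 members were tested among 17877 genes in the first and 97 among 16510 genes in the second.

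Each experiment held 3 libraries per group. The mutant experiment set *hand2* FLD-/- embryos, homozygous for a full-locus deletion allele, against FLD+/? siblings, which are wild type or heterozygous. The overexpression experiment set *hand2* OE embryos, which carry *Tg(myl7:hand2-p2a-EGFP)* and so express extra *hand2* from the cardiomyocyte promoter of *myl7*, against WT siblings. Cells were sorted for a fluorescent protein driven by *myl7*, EGFP in the mutant experiment and named as EGFP in one place and mCherry in another for the overexpression experiment, and about 1 ng of RNA went into each library. No label ties a library to particular embryos, so that p-values measure the spread between these libraries.

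The respiratory chain sits in the inner mitochondrial membrane. Complex I takes electrons from NADH and complex II from succinate, complex III passes them from coenzyme Q to cytochrome c, and complex IV hands them to oxygen. Complexes I, III and IV pump protons, and complex V, the ATP synthase, uses the proton gradient to make ATP. Heart muscle depends on this pathway in the adult, and several subunits have heart or muscle isoforms. A part of the subunits of complexes I, III, IV and V is encoded in mitochondrial DNA, and these were not analysed here.

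The targeted gene followed its label in the mutant experiment. Normalized counts of *hand2* were 2228, 2336 and 2380 in the siblings, against 149, 427 and 45 in the mutants. In the overexpression experiment they were 1671, 1667 and 1611 in WT, against 2159, 1939 and 2102 in *hand2* OE, a log2 fold change of 0.32 with a limma adjusted p of 0.00837, which is below the fold threshold used here. Between 5002590 and 7658390 counted reads were estimated per library. The 101 genes together took 0.793 to 0.804% of the normalized counts in the siblings and 0.708 to 0.768% in the mutants, without overlap. In the overexpression experiment they took 1.06 to 1.09% in WT and 0.994 to 1.1% in *hand2* OE.

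In *hand2* FLD-/- cardiomyocytes most subunit genes of all 5 complexes lay slightly lower than in the siblings, and almost none passed the fold threshold. The median log2 fold change of the members was -0.16 on the normalized counts (88.9% of 99 genes below 0) and -0.002 on counts multiplied back by the scaling factor of each library, against 0.003 on the normalized counts over all tested genes (49.8% below 0) and 0.16 on the counts multiplied back. A gene was called where the Benjamini-Hochberg adjusted p of limma over all tested genes was at most 0.05 and the change was at least 1.5-fold, on the log2(value + 1) scale. By this rule 1 member fell, where 9.43% of all genes were called down, and 1 rose, where 9.09% were called up. By the adjusted p alone 15 members were lower, a share of 15.2% that is close to the 14.8% of all genes. The mutant libraries lay below every sibling library in 70 members (70.7%), against 22.3% of all genes. They lay above every sibling library in 1 of the 99 members, against 3939 of all 17877 genes tested. At a mean of at least 100 they lay below in 77.3% of 88 members, against 26.9% of all genes. Members of that level spread less between libraries than other genes did, so small differences separate their groups more readily. The members thus shifted together and by little, and their share of calls was not above that of all genes. Both called members were also called on the counts multiplied back.

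**Figure D1:**
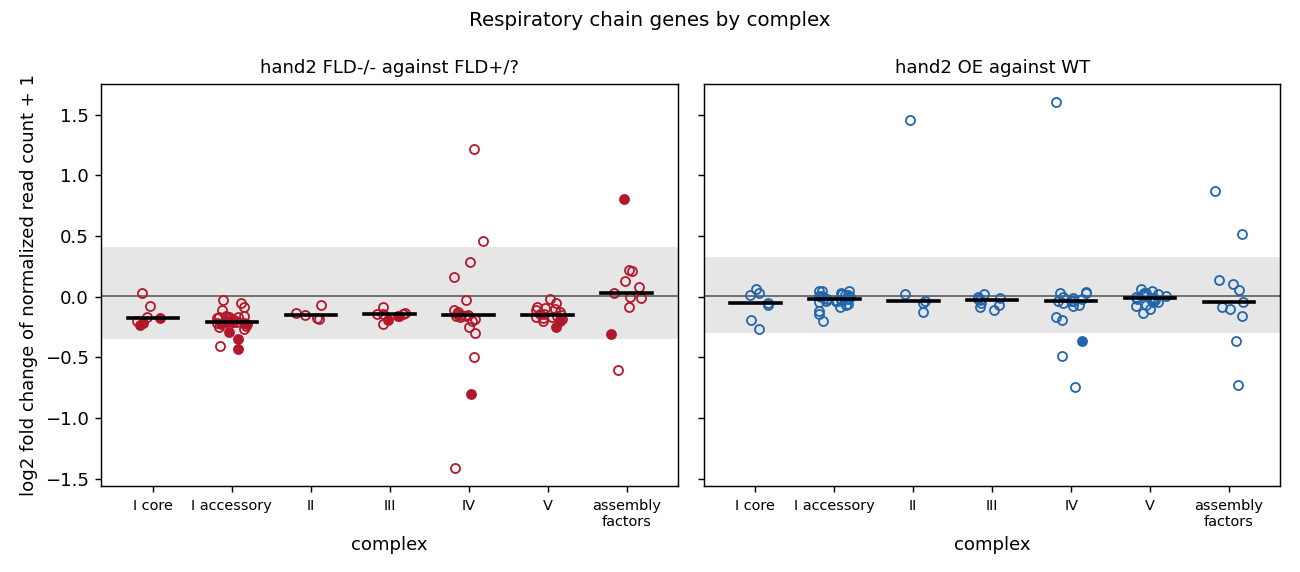
Log2 fold change of each tested respiratory chain gene (circles, vertical axis) by complex, in *hand2* FLD-/- against FLD+/? siblings (left) and *hand2* OE against WT siblings (right). Filled circles have a limma adjusted p of at most 0.05, black bars are medians, and the grey band and line are the quartiles and median of all tested genes. In the left panel the subunits of every complex have a median between -0.21 and -0.14 while that of the assembly factors is 0.03. On counts multiplied back by the library factors the medians of the complexes in that panel lie between -0.05 and 0.02.

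Complex I gave the lowest median. Of its 35 tested subunits, 34 were lower in the mutants, with a median of -0.20, and 9 (25.7%) were lower with an adjusted p of at most 0.05. That share was 14.8% over all tested genes and 19% over those with a mean of at least 100. The 7 tested core subunits, among them those that carry the flavin and iron-sulphur centres, had a median of -0.18, and the 28 accessory subunits, which surround that core, had a median of -0.21. Among the core subunits *ndufv1*, which binds NADH, had 1245, 1219 and 1247 normalized counts in the siblings, against 1021, 1008 and 1125 in the mutants (log2 fold change -0.24, SE 0.06, adjusted p 0.0132). Its groups did not overlap, and the difference did not reach 1.5-fold. Without the trend of variance in limma its adjusted p was 0.0941.

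The accessory subunit *ndufv3* (chromosome 9, 19518674 to 19528038, danRer11) had the smallest p of the complex. Its values were 618, 568 and 625 in the siblings, against 456, 450 and 438 in the mutants (-0.43, SE 0.08, adjusted p 0.00287). The same gene in *hand2* OE had 490, 492 and 579, against 597, 546 and 552 in WT (-0.12, adjusted p 0.544), with overlapping groups. In that experiment no complex I subunit had an unadjusted p below 0.05, and the lowest p of its subunits belonged to the core subunit *ndufs8a*, with 722, 690 and 743 in WT, against 655, 567 and 672 in *hand2* OE (-0.19, adjusted p 0.265). In the mutant experiment *ndufs8a* read 604, 586 and 345 in the siblings, against 490, 553 and 478 in the mutants, and the third sibling library lay below all others.

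*ndufs1*, the largest core subunit, was counted low, at 9 to 16 in the mutant experiment and 9 to 24 in the overexpression experiment. It lies within 13206516 to 13231951 of chromosome 6 and shares that stretch with *ino80db* on the same strand (13207139 to 13254851), and reads that overlap more than one gene were left out of the counts. No direction can be read from it (-0.07, SE 0.53 in the mutants). Of the 101 members, 15 overlap another listed gene. The 84 tested members without such an overlap had a median of -0.17 in the mutants, and those with one had -0.15.

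The assembly factors of complex I, which build the complex and are not part of it, did not share the shift. Their median in the mutants was 0.03, and 3 of 7 were lower. *ndufaf7* (chromosome 20, 3277620 to 3288089), a methyltransferase needed to assemble complex I, was the one member that rose. It had 123, 97 and 101 normalized counts in the siblings, against 142, 199 and 229 in the mutants, without overlap (log2 fold change 0.80, SE 0.21, adjusted p 0.0201). Its call was lost without sibling replicate 2 (adjusted p 0.0644), mutant replicate 2 (0.0675) or mutant replicate 3 (0.0773), and without the trend of variance in limma (0.0522). In *hand2* OE it had 63, 106 and 108 against 58, 58 and 34 in WT (0.87, SE 0.37, adjusted p 0.22), also without overlap and not past the test.

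Complex II, succinate dehydrogenase, also serves the tricarboxylic acid cycle. Its flavoprotein gene *sdha* had 1579, 1540 and 1663 normalized counts in the siblings, against 1392, 1413 and 1505 in the mutants (-0.15, SE 0.05, adjusted p 0.0539). The iron-sulphur subunit *sdhb* had 1032, 980 and 1077 against 871, 887 and 971 (-0.18, SE 0.07, adjusted p 0.0696). The 5 subunit genes were all below 0, with a median of -0.15, 0 calls by limma and 3 genes with an unadjusted p below 0.05. Of all 17877 genes tested, 7190 reached that p. *sdhda*, with 8, 9 and 3 against 8, 2 and 9 (-0.14, SE 0.78, limma adjusted p 0.915), was counted too low for a direction to be read. The groups of *sdhc* overlapped (-0.07, adjusted p 0.579). In *hand2* OE, *sdha* had 1744, 1649 and 1713 against 1852, 1903 and 1813 in WT (-0.13, SE 0.04, adjusted p 0.147), and the groups did not overlap.

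The assembly factors of complex II differed from one another. *sdhaf2*, which helps to attach the flavin to the *sdha* product, had 229, 174 and 281 normalized counts in WT, against 132, 148 and 124 in *hand2* OE (-0.73, SE 0.21, adjusted p 0.0792). Every *hand2* OE library lay below every WT library, while in the mutants the groups overlapped, with 199, 189 and 183 in the siblings, against 158, 192 and 269 in the mutants. *sdhaf4*, which binds the flavin-bearing *sdha* product, had 335, 317 and 344 in the siblings, against 265, 258 and 280 in the mutants (-0.31, SE 0.10, adjusted p 0.0491), and overlapped between the groups in the overexpression experiment. In the mutants its limma adjusted p was 0.0826 with libraries rescaled to equal totals.

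In complex III all 9 subunit genes were lower in the mutants, with a median of -0.14. The core subunit *uqcrc2b* had 1342, 1335 and 1313 normalized counts in the siblings, against 1125, 1157 and 1200 in the mutants (-0.20, SE 0.05, adjusted p 0.0136). *uqcrc1*, the other core subunit, had 1733, 1790 and 1776 against 1531, 1594 and 1622 (-0.16, SE 0.04, adjusted p 0.0201). Without the trend of variance in limma the adjusted p was 0.107 for *uqcrc2b* and 0.167 for *uqcrc1*. The catalytic subunits showed the same order of groups: the Rieske iron-sulphur protein *uqcrfs1* had 1517, 1538 and 1629 against 1415, 1449 and 1383 (-0.14, adjusted p 0.0516), and cytochrome c1, *cyc1*, had 1352, 1298 and 1259 against 1112, 1220 and 1234 (-0.13, adjusted p 0.119). In *hand2* OE the smallest p of the complex was that of *uqcrfs1*, with 1708, 1639 and 1716 against 1786, 1861 and 1731 in WT (-0.09, SE 0.05, adjusted p 0.343).

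Complex IV, cytochrome c oxidase, held the one member that fell. *cox6b1* (chromosome 24, 39606053 to 39610585), whose product faces the cytochrome c side of the complex, had 211, 185 and 181 normalized counts in the siblings, against 100, 139 and 95 in the mutants. The groups did not overlap, the mutant mean was 0.579 of the sibling mean, and the log2 fold change was -0.80 (SE 0.19, adjusted p 0.0123). The call held without each library in turn, with an adjusted p of at most 0.0499. In *hand2* OE the gene had 418, 363 and 406 against 446, 465 and 447 in WT (-0.20, SE 0.10, adjusted p 0.312), again without overlap.

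*ndufa4* (chromosome 12, 9880493 to 9884326), first named as a complex I gene and now counted with complex IV, was low in both experiments. It had 190, 193 and 154 in the FLD+/? siblings and 114, 135 and 130 in the mutants (-0.50, SE 0.17, adjusted p 0.0535), and with each library left out the adjusted p ran from 0.0323, without sibling replicate 3, to 0.162. In the overexpression experiment it had 573, 589 and 573 in WT, against 458, 426 and 461 in *hand2* OE (-0.37, SE 0.08, adjusted p 0.0365), the one member there with an adjusted p of at most 0.05. That p rose to between 0.0667 and 0.119 with any one library left out, and to 0.138 without the trend of variance and 0.0921 with the replicate block. Loss and gain of *hand2* thus gave the same order of groups for this gene, and neither change reached the call.

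Most other subunits of complex IV stayed near the median of -0.16. *cox4i1*, the main nuclear-encoded regulatory subunit, had 596, 614 and 592 in the siblings, against 517, 564 and 548 in the mutants (-0.15, adjusted p 0.167), and *cox5aa* had 607, 609 and 594 against 510, 525 and 580 (-0.17, adjusted p 0.142). The isoforms with low counts spread wider. *cox4i2*, the isoform of *cox4i1* that is induced by low oxygen in mammals, had 6, 27 and 24 in the siblings, against 42, 54 and 25 in the mutants (1.22, SE 0.60, adjusted p 0.165). *cox6a2*, the heart and muscle isoform in mammals, had 6, 11 and 8 against 3, 4 and 1 (-1.41, SE 0.74, adjusted p 0.192). Neither difference was detectable at these counts.

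**Figure D2:**
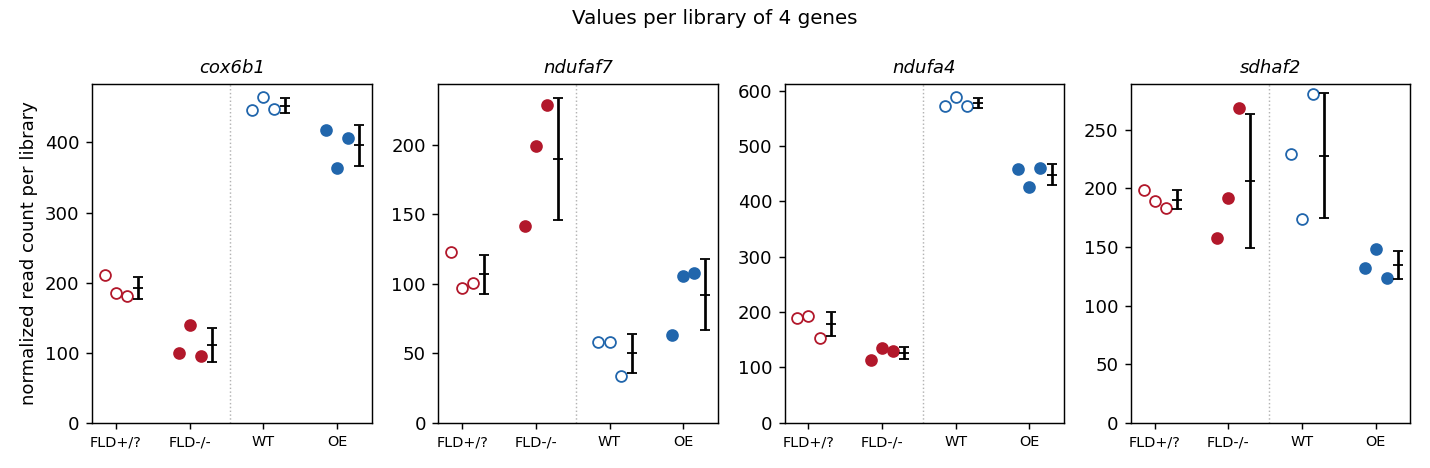
Normalized read counts per library (vertical axis, from 0) of *cox6b1*, *ndufaf7*, *ndufa4* and *sdhaf2* in FLD+/? siblings and FLD-/- mutants (red, left of the dotted line) and in WT siblings and *hand2* OE (blue, right of it). Open circles are control libraries, filled circles the other group, and the bars give the mean and SD of 3 libraries. The 2 experiments were normalized separately, and the 3 mutant values of *cox6b1*, 95 to 139, lie below the sibling values of 181 to 211.

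Complex V followed complexes II to IV. All 19 genes were below 0 in the mutants, with a median of -0.15. Of the catalytic head, *atp5f1b* (the beta subunit) had 2021, 2089 and 2093 normalized counts in the siblings, against 1824, 1929 and 2003 in the mutants (-0.11, SE 0.04, adjusted p 0.102), and *atp5fa1* (the alpha subunit) had 1820, 1841 and 1711 against 1561, 1748 and 1770 (-0.08, SE 0.06, adjusted p 0.325). The groups were separate in the first and overlapped in the second. *atp5meb*, a membrane subunit, had the smallest p, with 599, 602 and 598 against 464, 532 and 521 (-0.25, SE 0.08, adjusted p 0.0443). Its limma adjusted p was 0.0982 without the trend of variance and 0.0842 with libraries rescaled to equal totals.

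The genes of the ATP synthase inhibitors were not called. *atp5if1a* had 474, 468 and 477 in the siblings, against 444, 477 and 479 in the mutants (-0.02, adjusted p 0.874), and *atp5if1b* had 468, 434 and 449 against 407, 417 and 410 (-0.13, adjusted p 0.273). In *hand2* OE the median of complex V was -0.01. The smallest p there was that of *atp5if1b*, with 509, 473 and 547 against 551, 545 and 539 in WT (-0.10, SE 0.09, adjusted p 0.592), and the groups overlapped.

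In the overexpression experiment as a whole, 0 members were called by limma in either direction, where 1.57% of all genes were called down and 2.53% up. An unadjusted p below 0.05 was reached by 4 members, against 3456 of all 16510 genes tested. By the adjusted p alone 1 member was lower (*ndufa4*, 1.03% of the members against 3.18% of all genes). The median log2 fold change was -0.03 (68% of 97 genes below 0) against 0.001 over all genes. *hand2* OE lay below WT without overlap in 12 members, 12.4% against 12.9% of all genes. It lay above WT without overlap in 3 of the 97 members, against 2167 of all 16510 genes tested. The median of -0.03 became -0.11 on counts multiplied back by the library factors, where that of all genes was -0.07, and 0.03 without *hand2* OE replicate 2. The median standard error of a member was 0.09. Across both experiments 61 of the 97 members tested in each were lower in each.

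Within the mutant and *hand2* OE groups, and not within the control groups, the members' values moved with the factor by which each library was scaled. That factor was estimated from the low values of each library and is the number its read counts were divided by. Values multiplied by it are called estimated reads. These factors were 0.975, 0.937 and 0.951 in the FLD+/? siblings and 1.14, 1.06 and 1.01 in the FLD-/- mutants, with no overlap, a mean difference of 0.16 on the log2 scale. In the overexpression experiment the mean difference of *hand2* OE from WT was -0.077, and the factors overlapped. The members' median there was -0.03, so between those groups it did not move against the factor. A larger factor goes with a more deeply sequenced library. In estimated reads, *uqcrc1* had 1690, 1677 and 1689 in the siblings, against 1742, 1682 and 1646 in the mutants, and *cox7c*, a small subunit of complex IV, had 454, 443 and 443 against 451, 439 and 452. *atp5f1b* had 1971, 1958 and 1990 against 2076, 2036 and 2033, higher in the mutants without overlap. In the overexpression experiment *uqcrc1* had 1970, 1899 and 1968 in WT, against 1764, 1899 and 1801 in *hand2* OE. There *cox7c* had 479, 455 and 487 against 450, 451 and 443, and *atp5f1b* had 2177, 2188 and 2278 against 2046, 2122 and 2066. On estimated reads the members' median in the mutants was -0.002 and the median of all genes was 0.16. Multiplying back adds the factor difference of 0.16 to about every gene alike. The change of the members' median between the scales therefore follows from the scaling and is no test of the shift. By complex the medians on estimated reads were -0.04 for complex I, -0.002 for II, 0.02 for III, 0.01 for IV, 0.01 for V and 0.19 for the assembly factors. Relative to the median of all genes the members stood at -0.17 on either scale, a difference that 1 factor per library leaves about unchanged. Library factor and genotype cannot be told apart in this comparison.

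Within a genotype the relation was present in the *hand2* OE and mutant groups, whose factors spread most, and not in the control groups. In *hand2* OE the factors were 0.931, 1.08 and 0.944, and 78 of 87 members with 100 or more normalized counts on average (89.7%) had their lowest normalized count in replicate 2, the deepest of these libraries, against 39.4% of the other genes at that level. The members' median in that library was 0.14 below the other libraries on the log2 scale (-0.14), with a log2 factor 0.21 above theirs. In the mutants 75 of 88 members (85.2%) were lowest in replicate 1, the deepest, against 40% of other genes. In the control groups, where the factors lay closer together, the library of largest factor held the lowest value of 30.7% of the members in the FLD+/? siblings (35.5% of other genes) and of 36.8% in WT (33.9%). Without *hand2* OE replicate 2 the members' median in the overexpression experiment was 0.03 and 33% were below 0, so its direction rests on that library. Without mutant replicate 1 the members' median in the mutant experiment was -0.13.

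**Figure D3:**
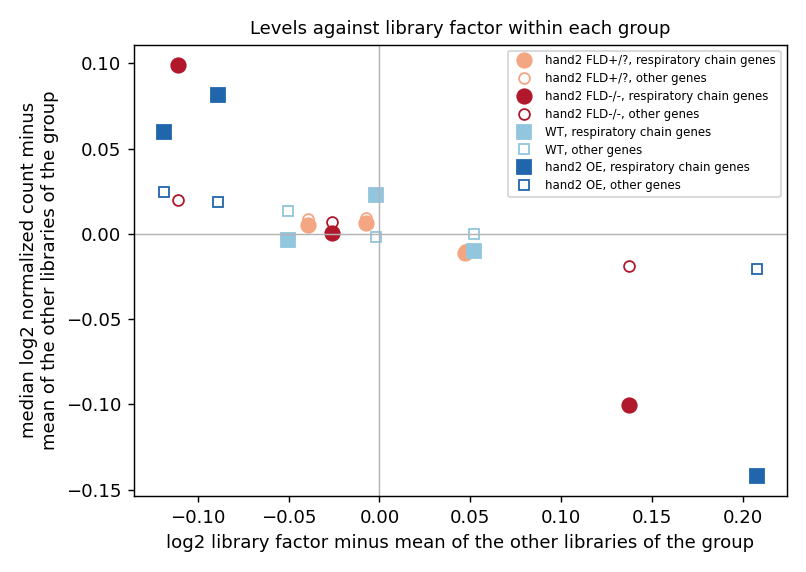
Median log2 normalized count of the respiratory chain genes (filled) and of other genes (open) in each library, minus the mean of the other libraries of its group (vertical axis), against the log2 library factor taken the same way (horizontal axis), for genes with 100 or more counts on average. The members lie at -0.14 in the *hand2* OE library and at -0.10 in the FLD-/- library with the largest factors, while the other genes stay within about 0.02 of 0.

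On estimated reads, which are not adjusted for depth, the spread of the members between libraries of a group was close to that of counting alone. The ratio was not computed on normalized counts. On those, *atp5f1b* had 2133 ± 30.7 (SD, n = 3) in WT and 2115 ± 135 in *hand2* OE. For independent counts in 3 libraries of equal depth, the variance of estimated reads divided by their mean has a median of 0.693 over genes. Over the members its median was 0.649 in the FLD+/? siblings, 0.488 in the mutants, 0.662 in WT and 0.693 in *hand2* OE. Over the other genes of that level it was 2.92, 3.75, 3.69 and 6.29. Genes outside the list with many reads for their length followed the deepest library. These were taken from non-member genes that span at most 2500 bases and have a mean of at least 50 normalized counts. Those with at least 0.5 reads per base (37 genes) had a median log2 fold change of -0.12 in the mutants, and 81.1% of them were lowest in mutant replicate 1. Those with 0.2 to 0.5 (109 genes) had -0.07 and 66.1%, and those with under 0.2 reads per base (295 genes) had 0.003 and 39.7%. Only *atp5if1a*, *atp5if1b*, *sdhaf4*, *cox7c*, *cox4i1*, *ndufa1* and *ndufa5* were members of that span with a mean of at least 100. They had 0.159 to 0.308 reads per base in the mutant experiment, so none of them reached 0.5. Reads per base of the other members were not examined. No gene of that span had more than 1.53 reads per base in the mutant experiment, where the highest was *cmlc1*, a cardiac myosin light chain gene. In *hand2* OE 90.9% of the genes with at least 0.5 reads per base (33 genes) were lowest in replicate 2. That share was 67.5% for 0.2 to 0.5 (77 genes) and 30.2% under 0.2 (222 genes). The median log2 fold changes of these genes in *hand2* OE were 0.04, 0.02 and -0.009 in that order. The part of this behaviour in the members' shift was not tested.

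The control groups of the experiments were normalized separately, to different totals, and can only be set side by side. Of 92 members with a mean of at least 20 in both, the log2 difference of WT minus FLD+/? siblings had a median of 0.04, with quartiles of -0.05 and 0.12. Over all 12601 such genes the median was -0.40, so that relative to it the members stood 0.44 higher in WT. Measured from the median of all genes, 3 members (3.26%) differed by more than 2-fold, *ndufa4*, *cox6b1* and *cox7a1*, against 18.8% of all genes. On the values as deposited *ndufaf7* differed by more than 2-fold as well. Means were 179 ± 21.7 (SD, n = 3) in the FLD+/? siblings and 578 ± 9.24 in WT for *ndufa4*, 192 ± 16.3 and 453 ± 10.7 for *cox6b1*, and 29.3 ± 4.93 and 83 ± 3.61 for *cox7a1*, the heart and muscle isoform of that subunit in mammals. *ndufaf7* had 107 ± 14 and 50 ± 13.9. Of these, *cox7a1* had 67, 57 and 53 in *hand2* OE against 80, 82 and 87 in WT (-0.49, SE 0.28, adjusted p 0.369).

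**Figure D4:**
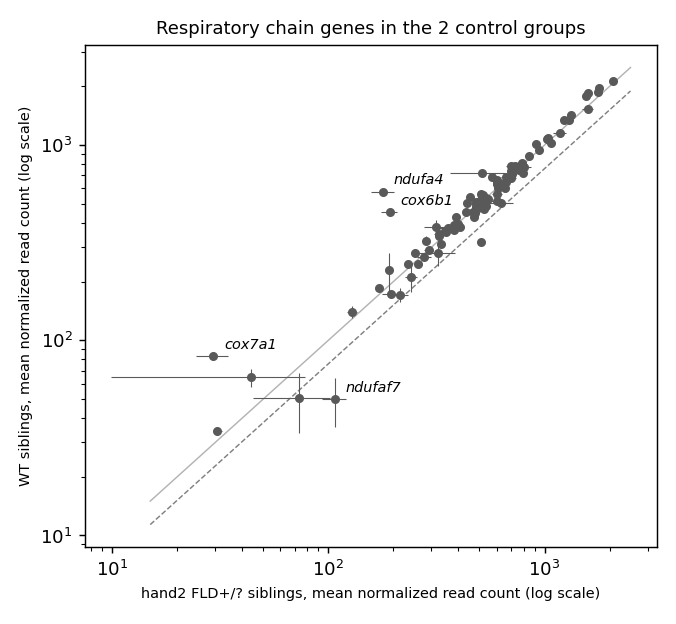
Mean normalized read count of each respiratory chain gene in WT siblings (vertical axis) against FLD+/? siblings (horizontal axis), both on log scales, with the SD of 3 libraries as bars the line of equal values in solid grey and the median of all genes, -0.40 on the log2 scale, as the dashed line. The tables were normalized separately, and the 4 named genes are those that differ by more than 2-fold on the values as deposited.

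Several subunits have paralogs or isoforms, and the log2 ratio within a pair nearly cancels the library factor. Of 13 pairs in the mutant experiment, 5 had ratios without overlap between the groups. The share among other gene pairs was not computed, so no excess can be read from this count. Among all 17877 single genes tested, 3988 were lower and 3939 higher without overlap. The ratio of *cox6b1* to *cox6b2* was -1.86 ± 0.14 (SD, n = 3) in the siblings and -2.53 ± 0.28 in the mutants, a difference of -0.67, since *cox6b2* had 692, 691 and 713 against 632, 648 and 639. The ratio of *cox4i1* to *cox4i2* differed by -1.36 and that of *cox6a1* to *cox6a2* by 1.26, each resting on the low counts of the second gene. The ratio of *ndufa9a* to *ndufa9b* differed by 0.22 and that of *atp5if1a* to *atp5if1b* by 0.11. In the two-sided exact permutation test each had p = 0.1, the smallest that 3 against 3 libraries can give, and 0.267 after adjustment.

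In the overexpression experiment 4 of 11 pairs had ratios without overlap, again with no share among other pairs to set beside it. Among all 16510 single genes tested there, 2136 were lower and 2167 higher without overlap. The ratio of *cox7a1* to *cox7a2a* was -2.60 ± 0.09 in WT and -3.06 ± 0.14 in *hand2* OE, a difference of -0.46. That of *cox6b1* to *cox6b2* differed by -0.14, that of *cox5aa* to *cox5ab* by -0.07 and that of *cox8a* to *cox8b* by 0.71, the last with 3 to 15 counts of *cox8b*. The exact permutation p was again 0.1 for each of them. *cox6b1* was therefore lower against its paralog in both experiments, and the remaining pairs did not share a direction without overlap.

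Other lists of mitochondrial and metabolic genes were set beside the members. In the mutants the tricarboxylic acid cycle (17 genes) had a median of -0.19 with 0 calls by limma and 11 genes lower by the adjusted p alone, the same number as had an unadjusted p below 0.05, and the electron carriers and coenzyme Q genes (14 genes) had -0.20 with 0 calls and 6 genes at an unadjusted p below 0.05. The assembly factors with other names (36 genes, 0 calls, 6 at an unadjusted p below 0.05) had -0.04, and the mitochondrial ribosome (74 genes, 0 calls, 9 at that p) had 0.05. Of all 17877 genes tested in the mutant experiment, 7190 had an unadjusted limma p below 0.05. Of 23 glycolysis genes 3 fell, *gpib*, *pfkmb* and *pgam2*, where 9.43% of all genes were called down, and the list median was -0.15. Of 13 fatty acid oxidation genes *cpt1aa* rose and *acadl* fell, with a median of -0.11. By the adjusted p alone 64.7% of the cycle genes were lower, 39.1% of glycolysis and 38.5% of fatty acid oxidation. That share was 14.3% for the carriers, 2.78% for the other assembly factors and 0% for the ribosome, beside 15.2% of the members and 14.8% of all genes. The medians of the cycle, the carriers and glycolysis all lay near the -0.16 of the respiratory chain, and no test was made between the lists. On estimated reads these medians were -0.03 for the cycle, -0.04 for the carriers, 0.12 for the other assembly factors, 0.21 for the ribosome, 0.02 for glycolysis and 0.05 for fatty acid oxidation, beside 0.16 for all genes.

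The regulators of mitochondrial biogenesis gave more calls than the chain itself. Of 12, 4 rose and 1 fell in the mutants, where 9.09% of all genes were called up and 9.43% down. *twnk*, the helicase of mitochondrial DNA, had 240, 311 and 271 normalized counts in the siblings, against 566, 551 and 539 in the mutants (log2 fold change 1.02, adjusted p 0.000162). *polrmt*, the mitochondrial RNA polymerase, had 318, 340 and 258 against 587, 526 and 634 (0.93, adjusted p 0.000511), and *polg*, the mitochondrial DNA polymerase, had 257, 276 and 260 against 474, 392 and 410 (0.68, adjusted p 0.00144). *tfb1m* rose as well (0.85, adjusted p 0.0443). *ppargc1a*, a coactivator of respiratory genes, had 431, 335 and 304 against 259, 217 and 192 (-0.67, adjusted p 0.0135). Over the list 3 of 12 genes were below 0, and none of these 5 was called in *hand2* OE.

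List medians in *hand2* OE were -0.15 for the regulators, 0.01 for the tricarboxylic acid cycle, -0.08 for the mitochondrial ribosome, -0.08 for the electron carriers, -0.10 for the other assembly factors and -0.06 for fatty acid oxidation, all with 0 calls by limma. An unadjusted p below 0.05 was reached by 4, 1, 3, 1, 3 and 3 genes of these lists in that order. It was reached by 3456 of all 16510 genes tested. Glycolysis had the lowest median, -0.21 over 22 genes, with 21 below 0, and *pfklb* fell, where 1.57% of all genes were called down. In this list 15 genes had an unadjusted limma p below 0.05. By the adjusted p alone 6 (27.3%) were lower, against 3.18% of all genes. On estimated reads the tricarboxylic acid cycle was at -0.07 and glycolysis at -0.29, beside -0.07 for all genes.

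**Figure D5:**
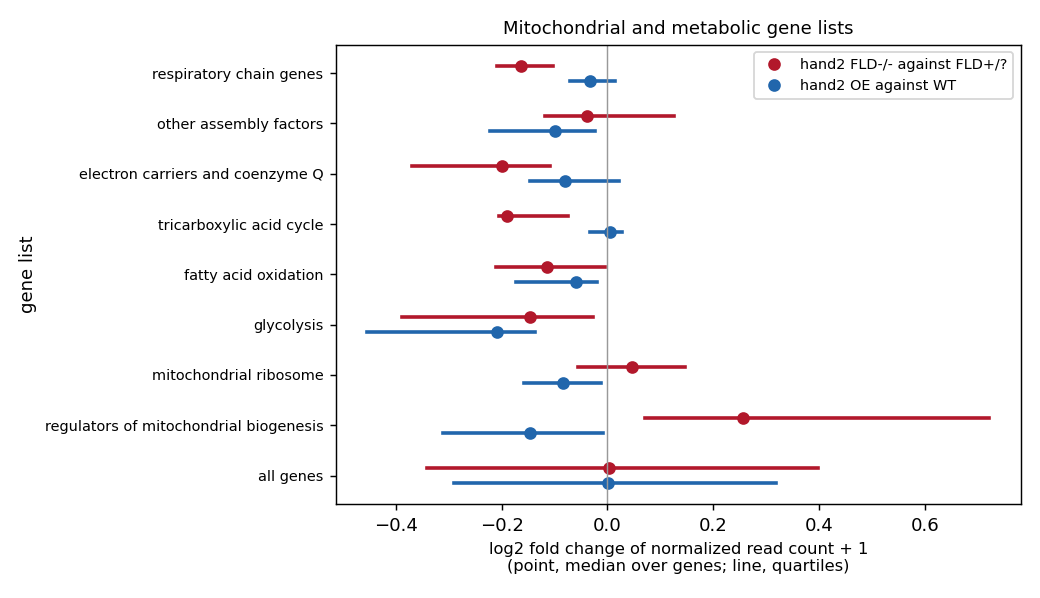
Median (points) and quartiles (lines) of the log2 fold change over the genes of each list (horizontal axis), in *hand2* FLD-/- against FLD+/? siblings (red) and *hand2* OE against WT siblings (blue). In red, the respiratory chain at -0.16 and the tricarboxylic acid cycle at -0.19 lie below 0 and the regulators of mitochondrial biogenesis at 0.26 lie above it, and on estimated reads the medians of these lists were -0.002, -0.03 and 0.42.

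Markers of other cells changed in the mutant libraries. The summed normalized counts of 10 cardiomyocyte markers were 31084 to 34163 in the siblings and 20245 to 21374 in the mutants, with *myh6*, *tbx5a* and *ttn.2* called down and none at 0 in all libraries. All 10 were below 0 and 7 were lower by the adjusted p alone. Their median log2 fold change was -0.25 on normalized counts and -0.09 on estimated reads. The listed marker *vmhc* had no row. All 6 tested endothelial markers of 7 listed rose, with sums of 848 to 1094 and 4555 to 4779. Of the skeletal muscle markers 2 of 5 rose, of the neural markers 1 of 6 rose and 2 fell, of the pharyngeal endoderm markers 1 of 3 rose, and no gene of the erythroid, neural crest, epidermal, yolk and hatching gland lists was called. In bulk libraries fewer cells of a type and less RNA per cell cannot be told apart, and the part of these cells in the members' values was not tested. The cardiomyocyte sum in *hand2* OE was 37767 to 42146 against 39337 to 44176 in WT, and *tubb5*, a neural marker, was the one marker called.

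The rule reads lower case names, and 5 further rows carry respiratory chain symbols in capitals. None was called. *COX5B* (ENSDARG00000015978), a nuclear-encoded subunit of complex IV, had 781 ± 6.08 normalized counts in the siblings and 685 ± 20.8 in the mutants (SD, n = 3; -0.19, adjusted p 0.0455), which is like the members. *NDUFB1* had -0.25 (adjusted p 0.366), *NDUFAF8* -0.14 (adjusted p 0.627) and *COX7A2* 0.002 (adjusted p 0.992). The members below the filter were *ndufs8b* and *cox5b2* in the mutant experiment, and these with *cox6a2* and *cox4i2* in the overexpression experiment.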

How the data were processed

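Messenger RNA of 12 libraries of sorted cardiomyocytes was analysed. The deposited values are scores: read counts per gene that the authors divided by 1 factor per library within each experiment and rounded to whole numbers. The authors used Trimmomatic 0.39 for trimming, STAR 2.7.10a for alignment to danRer11, featureCounts 2.0.2 for counts over exons (reads of several genes or places left out) and DESeq2 1.30.1. The use of strand and any removal of duplicate reads are not given in the sources used here, so overlapping genes are less certain. Estimated reads are values multiplied by the library's factor, read from whole numbers missing or doubled among low values.

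Log2(value + 1) was fitted within each experiment with limma 3.58.1 (trend) in R 4.3.3. The steps were tested on simulated data. Genes named were members called, those of lowest p per complex, the catalytic subunits, paralog pairs, inhibitors and *ndufa4*. *cox7c*, *cox7a1*, *ndufs8a*, *sdhaf2* and the non-members were named by those rules or after their values were seen. Members and lists were chosen with earlier results of these data known. Alternatives were other pseudocounts, filters, scalings, thresholds, no trend, a replicate block and leaving out each library. Values of 1 member are not reported here. Promoter and protein sequences were not used here. No column lacked a sample. The reads carry no molecular identifiers, so spreads are not those of independent molecules.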

Additional observations from a re-analysis of the deposited data

How the results depend on the processing

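The median log2 fold change of the members in the mutants, -0.16, was -0.12 with libraries rescaled to equal totals, -0.002 on estimated reads (an alternative chosen after seeing the data), and -0.20 to -0.13 with each library left out. In the overexpression experiment the median of -0.03 became -0.11 on estimated reads and ranged from -0.0547 to 0.0259 with each library left out. On estimated reads *sdha* (0.0128), *uqcrc1* (0.0039) and *atp5f1b* (0.0541) changed sign in the mutants. That scale adds the difference in log2 library factor, 0.16, to about every gene alike. The count of members that rose in the mutants, 1, became 0 without the trend of variance and 0 at 2-fold, and was 0 to 1 with each library left out. The count that fell, 1, became 15 by the adjusted p alone and 0 at 2-fold, and was 1 to 2 with each library left out. The count lower in *hand2* OE, 0, became 1 by the adjusted p alone. No other alternative moved these counts. Among the members named here as lower in the mutants at an adjusted p of at most 0.05, *cox6b1* (0.0313), *ndufv3* (0.018) and *sdhaf4* (0.045) kept it without the trend of variance. *ndufv1* (0.0941), *uqcrc2b* (0.107), *uqcrc1* (0.167) and *atp5meb* (0.0982) did not. Same-numbered libraries correlated by 0.0155 to 0.034 in the mutant experiment, each best with its own number, and by -0.0976 to -0.0205 in the other, so the numbers were not taken as pairs. With the replicate block the members called were 1 up and 1 down in the mutants and 0 in *hand2* OE, and over all genes 1573 rose and 1613 fell in the mutants (1625 and 1685 without it) and 286 and 180 in *hand2* OE (418 and 259 without it). With a pseudocount of 5 the ratio differences of *cox6a1* to *cox6a2* (0.65) and of *cox8a* to *cox8b* (0.46) shrank. Count-based tests were not run, since the values are not counts. Libraries were not left out for the paralog pairs.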
